A study of Mus musculus with 9 samples.

Results

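The genes described here are 10 interferon-induced GTPases of the guanylate-binding protein (GBP) and immunity-related GTPase (IRG) families, Gbp2, Gbp3, Gbp4, Gbp6, Gbp7, Igtp, Irgm1, Irgm2, Iigp1 and Gm12250, among 23337 genes counted in CD11b+ mouse bone marrow cells. They were chosen by name, with their levels across all 3 groups of mice already known, so their levels and fold changes are given as descriptions. Fits over all genes were made, and where they called any of the 10 this is listed beside the share of all genes called, as a description and not as support. All 10 passed the filter on low counts, as did 12553 genes in all.

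Bone marrow was taken from 9 male C57BL/6 mice, 3 to 6 weeks old when obtained, in 3 groups of 3. PBS mice received 100 µl of PBS by tail vein on days 1, 3 and 5. EnzR EV mice received EnzR EVs, which are extracellular vesicles (exosomes) from enzalutamide-resistant CWR-R1 human prostate cancer cells, as 10 µg of vesicle protein on the same days. The third group, EnzR EVs + HDL NPs, received the same EnzR EVs and, on days 0, 2 and 4, high-density lipoprotein-like nanoparticles (HDL NPs; 1 µM in the labels). No group received HDL NPs alone, so the effect of HDL NPs without EVs was not measured. Marrow from femurs and tibias was collected 24 h after the final injection, red cells were lysed, and cells were positively selected on CD11b, an integrin subunit of neutrophils, monocytes and macrophages. Each mouse gave 1 library of total RNA, so each value below comes from a mixed myeloid population in which fewer cells of a type and less RNA per cell cannot be told apart.

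GBPs and IRGs are cytosolic GTPases that interferons induce strongly in myeloid and other cells. GBPs bind the membranes of vacuoles that hold pathogens and the surface of bacteria in the cytosol, and they help to open these compartments and to trigger inflammasomes. Among IRGs, Irgm1, Irgm2 and Igtp (also called Irgm3) are regulators that sit on the cell's own membranes and keep the effector IRGs inactive there, whereas Iigp1 (Irga6) and Gm12250 (Irgb10) are effectors that load onto foreign membranes. Interferon-gamma acts on promoters through the gamma-activated site (GAS) and through the transcription factor IRF1, while type I interferons act through a complex that includes STAT2 and IRF9 and binds the interferon-stimulated response element (ISRE).

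Most of these genes lie in clusters on the mouse genome (GRCm38, GENCODE M21). Gbp7 (chr3:142530342-142550149, plus strand), Gbp3 (chr3:142560026-142573209, plus strand) and Gbp2 (chr3:142620602-142638008, plus strand) lie within 107.7 kb. Gbp4 (chr5:105115767-105139586) and Gbp6 (chr5:105270702-105293698), both on the minus strand, lie within 178 kb. Igtp (chr11:58199556-58207591) and Irgm2 (chr11:58199618-58222782) overlap on the plus strand, Gm12250 lies just before them (chr11:58187739-58189012), and Irgm1 is elsewhere on the same chromosome (chr11:48861968-48871683, minus strand). GENCODE gives Gm12250 as a processed pseudogene of 1 exon, whereas RefSeq lists it as protein coding.

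The stretches before the start sites are shown because the levels of most of the 10 genes varied together across libraries, and because GAS and ISRE letters can be read in them directly. RefSeq promoter windows (GRCm38.p6, 250 bases before to 50 bases after the annotated start) were matched for 7 of the 10 genes, namely Gbp2, Gbp3, Gbp7, Igtp, Irgm1, Irgm2 and Gm12250. Below, 5′ to 3′ on the gene's strand, up to 110 bases before the RefSeq start are printed, shortened for Gbp2, Gbp3 and Irgm1, where GENCODE places exons of the gene in that stretch. For Gbp3 the exon bases were left off. For Gbp2 and Irgm1 30 bases around the motif are shown, of which 22 and all 30 lie in a GENCODE exon, the marked cores included. The other stretches hold 0 exon bases of their gene. Capitals mark an ISRE core (GAAA, any 2 bases, GAAA, or the reverse complement of this) or a GAS (TTCNNNGAA, which reads the same on both strands).
Gbp2, chr3:142620594-142620623, plus strand: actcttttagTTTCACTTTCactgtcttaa
Gbp3, chr3:142559934-142560025, plus strand: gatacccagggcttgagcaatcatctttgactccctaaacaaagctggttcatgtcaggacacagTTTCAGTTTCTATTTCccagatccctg
Gbp7, chr3:142530226-142530335, plus strand: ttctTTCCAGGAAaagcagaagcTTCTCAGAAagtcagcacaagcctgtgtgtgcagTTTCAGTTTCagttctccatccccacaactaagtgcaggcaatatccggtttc
Igtp, chr11:58199446-58199555, plus strand: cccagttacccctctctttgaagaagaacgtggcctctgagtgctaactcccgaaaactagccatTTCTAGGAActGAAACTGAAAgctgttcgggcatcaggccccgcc
Irgm1, chr11:48871428-48871457, minus strand: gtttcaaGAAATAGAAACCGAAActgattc
Irgm2, chr11:58214867-58214976, plus strand: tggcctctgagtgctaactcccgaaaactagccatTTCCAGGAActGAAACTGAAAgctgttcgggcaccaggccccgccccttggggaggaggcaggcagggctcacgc
Gm12250, chr11:58183733-58183842, plus strand: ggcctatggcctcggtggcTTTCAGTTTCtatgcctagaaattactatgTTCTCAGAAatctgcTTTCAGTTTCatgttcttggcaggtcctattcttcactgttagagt

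All 7 genes had a window with an ISRE core, against 3.99% of 27025 mouse genes with RefSeq windows of the same length. Gbp3 has 2 windows, and the other one, not shown, held no core. Gbp3 and Irgm1 held 2 overlapping cores each, and Gm12250 held 2 separate cores. GAS letters were found for 4 of the 7 genes, Gbp7, Igtp, Irgm2 and Gm12250, against 9.55% of all genes, and both motifs stood in the same window for these 4, against 0.540% of all genes. In Igtp and Irgm2 the GAS was followed after 2 bases by the ISRE core, within a stretch that is nearly the same in both genes. That arrangement, on either strand and looked for after the sequences had been seen, was found in the windows of 5 of 27025 mouse genes, and these were Igtp, Irgm2 and the IRG genes Tgtp1, Tgtp2 and Gm12185. These matches are letters in a window and do not show binding.

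**Figure D1:**
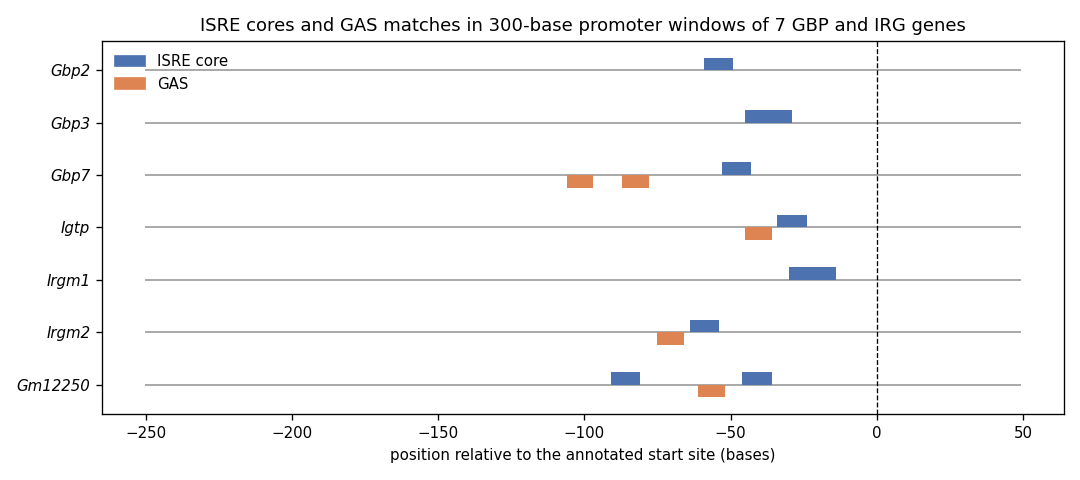
Position of each ISRE core (blue) and GAS (orange) in the 300-base RefSeq promoter windows of the 7 matched genes, in bases from the annotated start (dashed line). ISRE cores lie within 91 bases before the start in all 7 genes, and GAS matches in 4 of them.

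Libraries held 2575776 to 18110561 counts. Counts on Rn45s, which encodes ribosomal RNA, made up 42.7% of EnzR EVs replicate 1, 20.3% of PBS replicate 1, 14.2% of EnzR EVs replicate 3 and 0.657% to 2.87% of each remaining library. The 10 genes together had 260 counts in EnzR EVs replicate 1 and between 762 and 10886 counts in the other libraries. The floor of 3 counts corresponded to 1.65 CPM in EnzR EVs replicate 1 and to 0.160 to 0.528 CPM in the others, and these floors cover counting error only. Levels below are CPM, the counts of a gene relative to the TMM-scaled library total, and compare libraries for the same gene.

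Gbp2, a GBP that carries a lipid anchor and gathers on pathogen vacuoles, had the highest log2 fold change of the 10 genes after EnzR EVs. Its level was 15.0, 23.7 and 25.1 CPM in the 3 PBS mice (mean 21.2 ± 5.48, SD, n = 3), 16.5, 106 and 54.6 CPM in the EnzR EV mice (58.9 ± 44.7, n = 3) and 129.5, 60.3 and 73.8 CPM in the EnzR EV + HDL NP mice (87.9 ± 36.7, n = 3). Every EnzR EV + HDL NP mouse lay above every PBS mouse, whereas EnzR EVs replicate 1 lay within the PBS range. The edgeR log2 fold change against PBS was 1.50 (SE 0.519) after EnzR EVs and 2.04 (SE 0.524) after EnzR EVs + HDL NPs.

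Gbp3 and Gbp7 flank or neighbour Gbp2 on chromosome 3. Gbp3 stood at 14.4, 15.5 and 12.3 CPM in PBS mice, 11.5, 27.9 and 15.1 CPM in EnzR EV mice and 38.6, 22.4 and 23.9 CPM in EnzR EV + HDL NP mice. Gbp7, which in mouse phagocytes helps to assemble the superoxide-producing oxidase at vacuoles, stood at 27.3, 46.3 and 45.9 CPM in PBS mice, 41.7, 102.9 and 41.3 CPM in EnzR EV mice and 114.8, 75.8 and 78.1 CPM in EnzR EV + HDL NP mice. For both genes only EnzR EVs replicate 2 lay above the PBS range among the EnzR EV mice, and all 3 EnzR EV + HDL NP mice lay above it. Their log2 fold changes were 0.43 (SE 0.326) for Gbp3 and 0.65 (SE 0.365) for Gbp7 after EnzR EVs, and 1.01 (SE 0.320) and 1.16 (SE 0.365) after EnzR EVs + HDL NPs.

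Gbp4 and Gbp6, from the chromosome 5 cluster, were the lowest of the 10. Gbp4 stood at 1.41, 1.32 and 1.77 CPM in PBS mice, 3.84, 3.41 and 2.60 CPM in EnzR EV mice and 9.57, 3.28 and 6.36 CPM in EnzR EV + HDL NP mice. It was 1 of 2 genes of the 10, with Gm12250, in which all EnzR EV mice lay above all PBS mice. Its log2 fold change was 1.07 (SE 0.435) after EnzR EVs and 2.07 (SE 0.407) after EnzR EVs + HDL NPs, although the value in EnzR EVs replicate 1 rests on 7 counts. Gbp6 stood at 0.528, 0.978 and 1.32 CPM in PBS mice, 0, 3.41 and 0.355 CPM in EnzR EV mice and 5.18, 1.67 and 1.82 CPM in EnzR EV + HDL NP mice. EnzR EVs replicates 1 and 3, with 0 and 3 Gbp6 counts, and PBS replicate 1, with 3, were at or under the floor. These values are uncertain as well because 55.2% of the 75-base stretches of the Gbp6 transcripts recur in transcripts of other genes of that cluster, against 5.35% for Gbp4. The Gbp4 gene model also overlaps those of Gbp8 and Gbp9 on the same strand, so counts of either gene may be split or lost.

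Among the regulatory IRGs, Irgm1 stood at 33.4, 49.4 and 44.9 CPM in PBS mice, 19.2, 86.5 and 52.5 CPM in EnzR EV mice and 114.8, 67.2 and 75.2 CPM in EnzR EV + HDL NP mice. Irgm2 stood at 18.5, 38.4 and 36.2 CPM in PBS mice, 21.9, 65.6 and 46.8 CPM in EnzR EV mice and 78.5, 64.3 and 62.7 CPM in EnzR EV + HDL NP mice. Igtp stood at 11.8, 26.5 and 24.3 CPM in PBS mice, 13.2, 49.1 and 28.5 CPM in EnzR EV mice and 59.2, 44.3 and 42.9 CPM in EnzR EV + HDL NP mice. In all 3 genes the EnzR EV mice spread from within or below the PBS range to above it, and the EnzR EV + HDL NP mice lay above all PBS mice. Log2 fold changes after EnzR EVs were 0.35 (SE 0.413) for Irgm1, 0.56 (SE 0.357) for Irgm2 and 0.58 (SE 0.405) for Igtp. After EnzR EVs + HDL NPs they were 1.00 (SE 0.413), 1.13 (SE 0.356) and 1.21 (SE 0.403). Igtp shares 8.37% of its 75-base stretches, and an overlapping gene model, with Irgm2, so counts may be split or lost between them. The same holds for Gbp7, which shares 11.4% of its stretches with Gbp3 and the overlapping Gm43802.

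Of the effector IRGs, Iigp1, which lies on chromosome 18, stood at 2.29, 5.52 and 5.15 CPM in PBS mice, 2.19, 9.63 and 4.37 CPM in EnzR EV mice and 19.1, 6.80 and 8.59 CPM in EnzR EV + HDL NP mice. Gm12250 stood at 9.50, 12.3 and 10.7 CPM in PBS mice (mean 10.8 ± 1.38, n = 3), 12.6, 28.6 and 21.3 CPM in EnzR EV mice (20.8 ± 8.01, n = 3) and 43.5, 21.9 and 27.4 CPM in EnzR EV + HDL NP mice (30.9 ± 11.2, n = 3). Iigp1 overlapped between PBS and EnzR EV mice, while Gm12250 did not, with EnzR EVs replicate 1 just above PBS replicate 2. The log2 fold change of Iigp1 was 0.44 (SE 0.529) after EnzR EVs and 1.36 (SE 0.510) after EnzR EVs + HDL NPs, and that of Gm12250 was 0.99 (SE 0.321) and 1.51 (SE 0.317). No 75-base stretch of Irgm1, Iigp1 or Gm12250 was shared with another gene's transcripts.

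**Figure D2:**
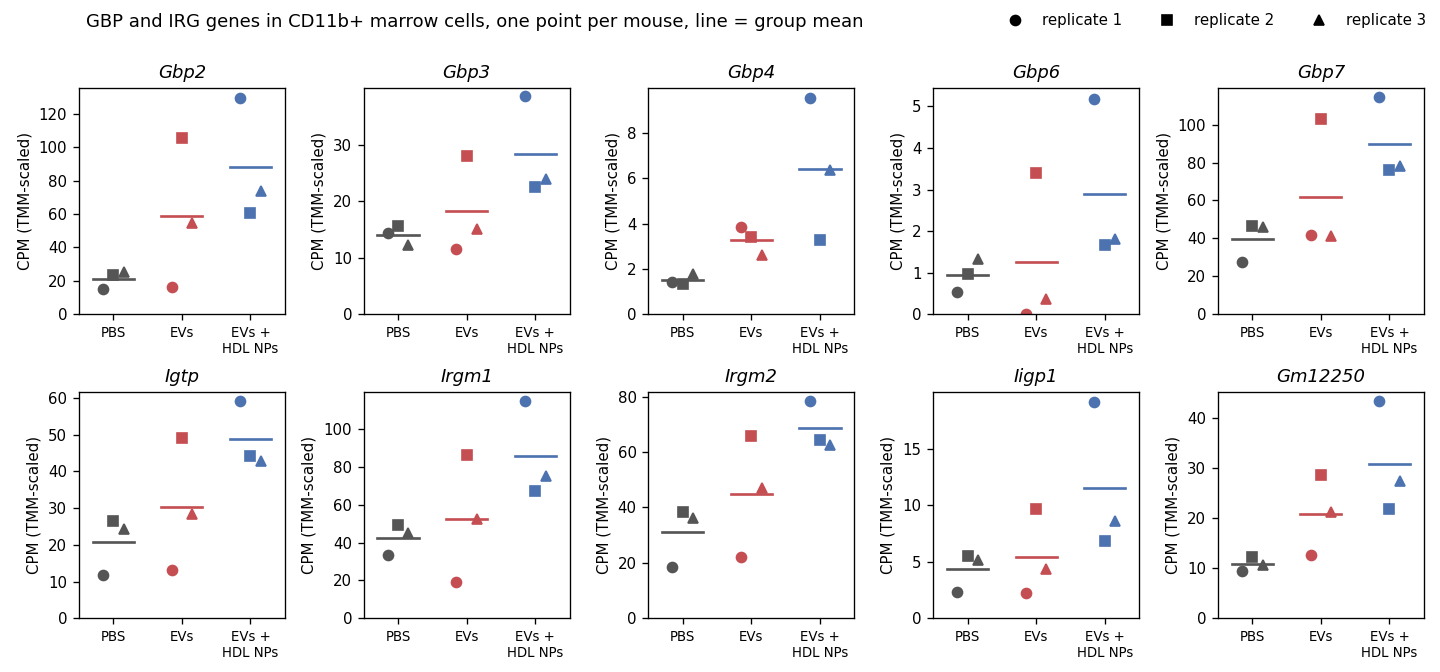
TMM-scaled CPM of each gene (linear axis from 0) in the 3 PBS, 3 EnzR EV and 3 EnzR EV + HDL NP mice, 1 point per mouse with the marker giving the replicate number and the line the group mean. EnzR EVs + HDL NPs replicate 1 is the highest of all 9 libraries in each of the 10 panels, and EnzR EVs replicate 2 the highest of its group in 9 of them.

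Read by library, the spread within groups was shared by most of the genes, though Gbp4 was highest, not lowest, in EnzR EVs replicate 1 among the EnzR EV mice. EnzR EVs + HDL NPs replicate 1 had the highest level of all 9 libraries for all 10 genes, and EnzR EVs replicate 2 the highest of its group for 9. PBS replicate 1 was the lowest of its group for 8 genes and EnzR EVs replicate 1 for 8. Summed over the 10 genes, the level was 187 ± 46.4 CPM in PBS mice, 298 ± 172 CPM in EnzR EV mice and 460.5 ± 133 CPM in EnzR EV + HDL NP mice (SD, n = 3 each).

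Rn45s share and depth differed between libraries as well. The mean log2 CPM of the 10 genes was 2.96 in EnzR EVs replicate 1, 3.01 in PBS replicate 1 and 3.83 in EnzR EVs replicate 3, the 3 libraries with over 10% Rn45s. It was 3.66 and 3.64 in PBS replicates 2 and 3, which held 1.57% and 1.17% Rn45s, and 4.81 in EnzR EVs replicate 2. Over the 9 libraries, a score of the 10 genes (their mean z value) had a Pearson r of -0.69 with the Rn45s share and of 0.69 with the log10 total count, given as a description because depth and Rn45s share moved together. The part of either in the levels was not tested. Without these 3 libraries, a setting chosen after seeing the data, the median log2 fold change of the 10 genes was 1.07 after EnzR EVs and 1.07 after EnzR EVs + HDL NPs, each against PBS, but the EnzR EV group then held only replicate 2.

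**Figure D3:**
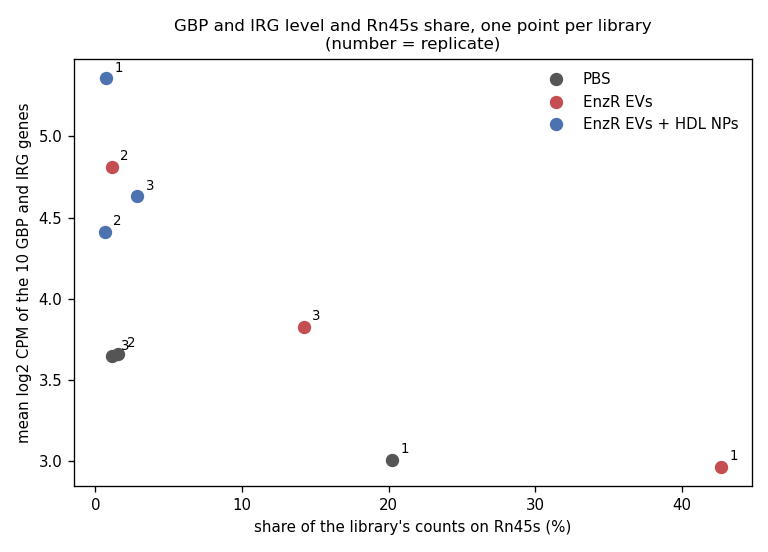
Mean log2 CPM of the 10 genes (vertical axis) against the share of counts on Rn45s in percent (horizontal axis), 1 point per library, coloured by group and numbered by replicate. The 3 libraries over 10% Rn45s are PBS replicate 1 and EnzR EVs replicates 1 and 3, at 3.01, 2.96 and 3.83, and among the other 6 the PBS libraries are lowest.

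To compare genes with each other, CPM was divided by the exon length in kb, from the basic set of GENCODE transcripts. In PBS mice the order of this level was Irgm1 (18.5 ± 3.57 CPM per kb, SD, n = 3), Igtp (10.3 ± 3.91), Gm12250 (8.49 ± 1.08), Gbp2 (8.44 ± 2.18), Irgm2 (8.41 ± 2.96), Gbp7 (7.09 ± 1.93), Gbp3 (4.61 ± 0.538), Iigp1 (1.38 ± 0.566), Gbp6 (0.361 ± 0.152) and Gbp4 (0.331 ± 0.0527). The 5 genes from Igtp to Gbp7 lay within their spread of each other, as did Gbp6 and Gbp4. The place of Irgm1 depends on the gene length: it was first at 2305 exon bases, but at the 3832 bases of its longest transcript, a setting chosen after seeing the data, it stood at 11.1 ± 2.15 CPM per kb in PBS mice, within the spread of Igtp, and at the 5810 bases of all its GENCODE exons at 7.33 ± 1.42, the fifth of the 10. In EnzR EV + HDL NP mice Irgm1 (37.2 ± 11.0 CPM per kb) and Gbp2 (34.9 ± 14.6) headed the order and did not differ beyond their spread, while with either other length Gbp2 was first and Irgm1 stood at 22.4 ± 6.64 and 14.8 ± 4.38. Gbp6, with 2604, 4243 or 5954 bases, and Gbp4 exchanged places in PBS mice with either other length, but both stayed the lowest. The value of Gm12250 uses the 1-exon GENCODE model and would differ with another model, and the annotation used for counting was a UCSC one.

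The share of each gene in the counts of the 10 was compared for all of them. The share of Irgm1 was 24.9%, 22.5% and 21.6% in PBS mice, 13.5%, 17.9% and 19.6% in EnzR EV mice and 18.7%, 18.3% and 18.8% in EnzR EV + HDL NP mice, so that every treated library lay below every PBS library. The share of Gbp2 was 11.2%, 10.8% and 12.1% in PBS mice, 11.5%, 21.9% and 20.4% in EnzR EV mice and 21.1%, 16.4% and 18.4% in EnzR EV + HDL NP mice. In EnzR EVs replicate 1, with 260 counts, the 95% Wilson intervals were 9.84% to 18.1% for Irgm1 and 8.20% to 16.0% for Gbp2, covering counting error only, and the Gbp2 share there lay with the PBS libraries. The other 2 EnzR EV libraries and all EnzR EV + HDL NP libraries lay above every PBS library in Gbp2 share, while the shares of the remaining 8 genes overlapped between PBS and either treated group.

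Do EnzR EVs change these genes in marrow CD11b+ cells? After EnzR EVs, all 10 genes had a log2 fold change above 0 against PBS, as 46.5% of the 12553 tested genes did, and 7 were above 0.5, as 8.75% of all genes were. The median over the 10 was 0.62, from 0.35 for Irgm1 to 1.50 for Gbp2, against a median of -0.027 over all genes. Non-overlapping groups, with EnzR EVs higher, were found for Gbp4 and Gm12250, 2 of the 10, against 3.43% of all genes.

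In this comparison edgeR's quasi-likelihood test called 0 of the 12553 genes (0%), members included, at an adjusted p under 0.05, with 436 genes (3.47%) at an unadjusted p under 0.05 and a smallest adjusted p of 0.200. DESeq2 called 8 of the 14117 genes to which it gave an adjusted p (0.0567%) and limma's voom 0 genes (0%), none of them a member. With the replicate number as a block edgeR called 1 gene (0.00797%) over 9 libraries and 8 of 11938 genes (0.067%) over the 6 libraries of these groups, with 0 members in either fit. Voom with sample quality weights called 1990 genes (15.9%) and 2 of the 10, Gbp2 and Gm12250, a share near that of all genes. The median of the 10 genes rested on 1 library: without EnzR EVs replicate 2 it was 0.081, and Gbp3 (-0.014), Gbp6 (-1.78), Irgm1 (-0.16) and Iigp1 (-0.26) then had log2 fold changes below 0. With quality weights Gbp6 and Iigp1 were below 0 as well, whereas the lowest value at any setting was 0.83 for Gbp2, 0.87 for Gbp4 and 0.73 for Gm12250.

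Were the levels different from PBS when HDL NPs were given as well? With EnzR EVs + HDL NPs, the lowest of the 3 mice lay above the highest PBS mouse for all 10 genes, against 6.96% of all genes tested. All 10 had a log2 fold change above 1, against 0.821% of all genes, with a median of 1.28, from 1.00 for Irgm1 to 2.07 for Gbp4, and the median over all genes was -0.0072. The PBS mice are the same as in the comparison above, so neither comparison is independent of the other.

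Again edgeR called 0 genes (0%), with 268 (2.13%) at an unadjusted p under 0.05 and a smallest adjusted p of 1.00, and voom called 0 (0%). DESeq2 called 7 of the 11598 genes with an adjusted p (0.0604%), of which Gbp4 and Gm12250 were 2, and voom with quality weights called 10 of 12553 genes (0.0797%), of which Gbp2 and Gm12250 were 2. The fold changes of this comparison were known when the 10 genes were chosen, so nothing is read from these counts. Across the alternatives tried, 187 of 187 values for the 10 genes stayed above 0, between 0.73 and 2.39. The median was lowest among the fits that left out 1 library without EnzR EVs + HDL NPs replicate 1, at 1.00.

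**Figure D4:**
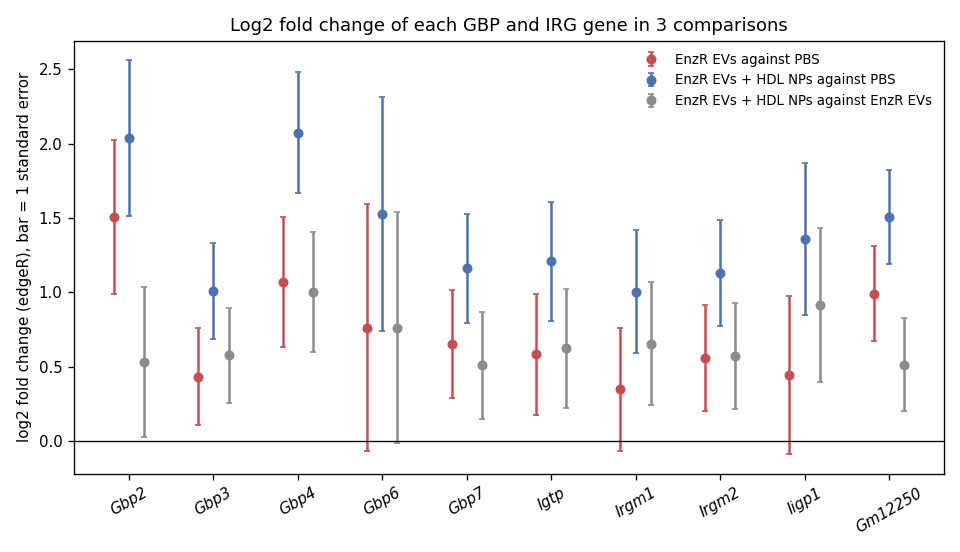
Log2 fold change from edgeR (vertical axis) of each gene in 3 comparisons of 3 against 3 mice, with bars of 1 standard error. The standard error was derived from the edgeR test, whose spread was estimated over all 9 libraries. The values against PBS with HDL NPs given (blue) run from 1.00 to 2.07 and those without (red) from 0.35 to 1.50.

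Did mice given HDL NPs differ from mice given EnzR EVs only? Here all 10 genes had log2 fold changes above 0.5, against 12.8% of all genes, with a median of 0.60, from 0.51 for Gbp7 to 1.01 for Gbp4. The groups overlapped for each of the 10 genes, while 8.99% of all genes had every EnzR EV + HDL NP mouse above every EnzR EV mouse. The test of edgeR called 0 genes (0%), with 1325 (10.6%) at an unadjusted p under 0.05, a smallest adjusted p of 0.461, and 1 of 18794 genes called by DESeq2 (0.00532%) and 0 by voom (0%), none of them a member. Voom with quality weights called 653 genes (5.2%) and 0 of the 10.

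These differences moved with the EnzR EV libraries used. The median was 1.10 without EnzR EVs replicate 2 and 0.31 without EnzR EVs replicate 1. When the 3 libraries with over 10% Rn45s were left out it was 0.0025, with Gbp2 at -0.27, Gbp6 at -0.23 and Gbp7 at -0.20. In that setting the EnzR EV group is replicate 2 alone, which is assumed to vary like the other mice.

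**Figure D5:**
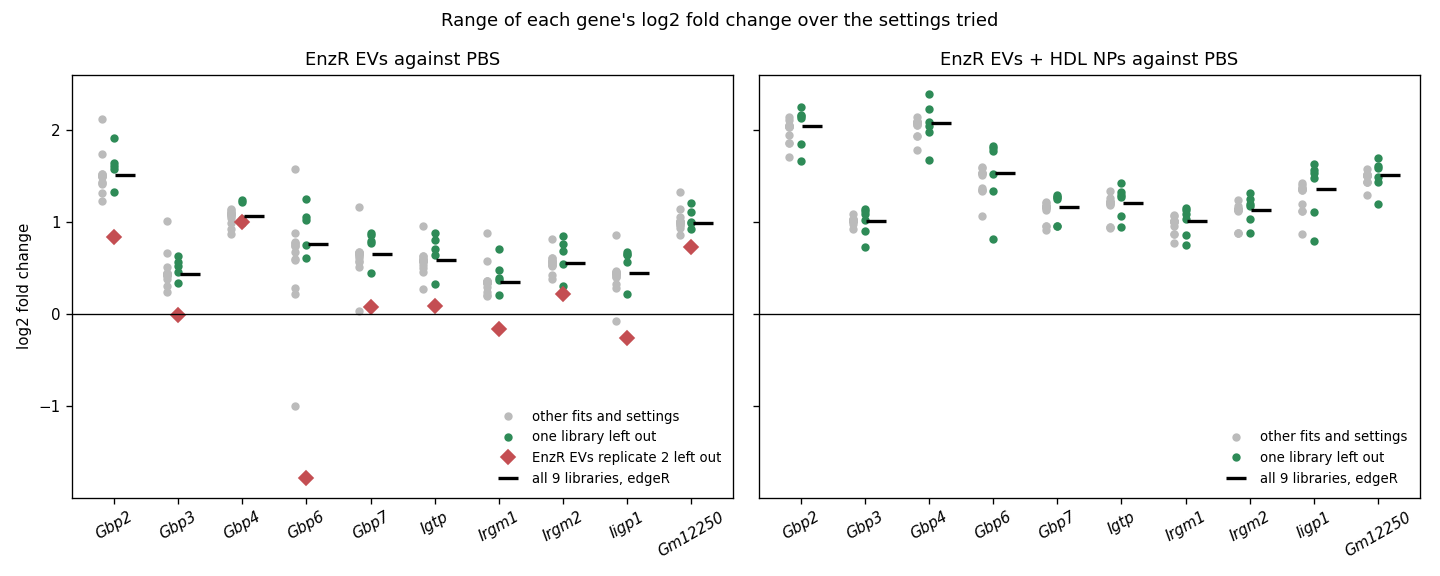
Log2 fold change (vertical axis) of each gene against PBS after EnzR EVs (left) and EnzR EVs + HDL NPs (right), with a black bar for the fit of all 9 libraries, green points for fits without 1 library, grey points for other tools and settings and a red diamond for the fit without EnzR EVs replicate 2. At the right all points are above 0, and at the left the red diamonds of Gbp3, Gbp6, Irgm1 and Iigp1 are below 0.

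Of the 10 genes, 9 varied together within and across groups. Over the 9 libraries, Pearson r of log2 CPM between pairs ranged from 0.40 (Gbp4 with Gbp6) to 1.00 (Igtp with Irgm2), with a median of 0.89 over 45 pairs, and with group means taken out the median was 0.86. Gbp4 was the exception: with group means taken out, its r with the other 9 genes was 0.019 (Irgm2) to 0.42 (Gm12250), against 0.67 to 0.99 for the 36 pairs without it. These correlations are descriptions, since the points share libraries, depth and Rn45s share, and Igtp and Irgm2 share sequence and overlap. The tested genes most like the mean z value of the 10 over the 9 libraries were Trim21 (r = 0.98), Eif2ak2 (0.98), Stat2 (0.98), Tgtp1 (0.97), Nlrc5 (0.97), Zbp1 (0.97), Nmi (0.97), Parp12 (0.97), Ms4a4c (0.96) and Mnda (0.96). Trim21, for instance, stood at 17.8, 24.5 and 23.3 CPM in PBS mice, 19.2, 35.4 and 27.7 CPM in EnzR EV mice and 39.3, 32.3 and 31.9 CPM in EnzR EV + HDL NP mice.

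Of the other GBP and IRG genes, 18 were in the table and 13 were tested, with 0 called by edgeR in each comparison. After EnzR EVs, 10 had log2 fold changes above 0 and 3 below (median 0.29), and 0 of the 13 had non-overlapping groups in the higher direction, against 3.43% of all genes tested. After EnzR EVs + HDL NPs, 11 were above 0 and 2 below (median 0.92), and 6 of the 13 had every mouse above every PBS mouse, against 6.96% of all genes tested. These 6 were Gbp5, Gbp9, Tgtp1, Tgtp2, Ifi47 and Gm12185.

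Gbp5, a GBP that promotes NLRP3 inflammasome assembly, stood at 3.17, 4.43 and 4.75 CPM in PBS mice, 1.10, 11.8 and 6.98 CPM in EnzR EV mice and 21.3, 7.69 and 14.0 CPM in EnzR EV + HDL NP mice, a log2 fold change of 1.77 (SE 0.517, edgeR adjusted p = 1.00) for the last group against PBS. Ifi47, an IRG, stood at 26.4, 31.6 and 27.4 CPM in PBS mice, 29.1, 61.9 and 37.5 CPM in EnzR EV mice and 82.5, 46.3 and 45.7 CPM in EnzR EV + HDL NP mice, a log2 fold change of 1.03 (SE 0.303, edgeR adjusted p = 1.00). Tgtp1 and Tgtp2, near-identical IRG genes whose counts may be exchanged, had log2 fold changes of 2.88 (SE 0.915) and 1.76 (SE 0.892) after EnzR EVs + HDL NPs, with at most 5 Tgtp1 counts in any PBS library. In each of these 4 genes and in Gm12185 EnzR EVs + HDL NPs replicate 1 was the highest library, as it was in each of the 10. Gbp9 was highest in replicate 3 of that group, which stood at 35.0, 27.8 and 35.1 CPM.

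Gm5431 was also highest in EnzR EVs + HDL NPs replicate 1, at 14.4 CPM, but both treated groups overlapped the PBS mice. It had a log2 fold change of -0.39 (SE 0.492) after EnzR EVs and 0.74 (SE 0.463) after EnzR EVs + HDL NPs. Irgq, an IRG-like gene, was highest in EnzR EVs replicate 1, at 59.3 CPM, and stood at 16.2 to 33.8 CPM in PBS mice and 16.5 to 18.5 CPM in EnzR EV + HDL NP mice. Gbp8 stood at 1.94, 2.70 and 5.89 CPM in PBS mice, 1.10, 4.52 and 4.37 CPM in EnzR EV mice and 5.63, 3.34 and 4.68 CPM in EnzR EV + HDL NP mice, so that all 3 groups overlapped. Gbp1, Gbp10, Gbp11, Gm4841 and 9930111J21Rik2 were in the table but did not pass the filter, and none exceeded 1.18 CPM in any library. Gm4951 reached 5.46 CPM, F830016B08Rik 1.32 CPM and Irgc1 3.29 CPM at most, while 9930111J21Rik1 stood at 7.13 to 30.1 CPM.

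The Mx genes belong to the dynamin family of larger interferon-induced GTPases. Mx1 stood at 16.0, 19.9 and 19.6 CPM in PBS mice, 15.4, 23.7 and 15.8 CPM in EnzR EV mice and 39.7, 30.3 and 30.3 CPM in EnzR EV + HDL NP mice, with log2 fold changes for the last group of 0.85 (SE 0.218) against PBS and 0.84 (SE 0.222) against EnzR EVs. Mx2 stood at 2.99, 5.29 and 4.92 CPM in PBS mice, 0.549, 5.64 and 3.31 CPM in EnzR EV mice and 9.63, 6.80 and 7.82 CPM in EnzR EV + HDL NP mice. In both Mx genes every EnzR EV + HDL NP mouse lay above every mouse of the other groups, but edgeR's adjusted p was 1.00 against PBS and 0.461 against EnzR EVs. Against EnzR EVs, voom with quality weights, which called 5.2% of all genes, called both, at adjusted p of 0.0474 for Mx1 and 0.0489 for Mx2, the lowest over the alternatives, which reached 0.958 and called neither gene otherwise. Both Mx genes belong to a list of other interferon-induced and related GTPases, of which 5 were tested. Every EnzR EV + HDL NP mouse was above every PBS mouse for 3 of the 5, against 6.96% of all genes. It was above every EnzR EV mouse for 3 of the 5, against 8.99% of all genes. In both comparisons the 3 were Mx1, Mx2 and Atl1, and Atl1 did not exceed 1.47 CPM in any library. In both, 4 of the 5 had log2 fold changes above 0 and 1 below. After EnzR EVs, 0 of the 5 had every mouse above every PBS mouse, against 3.43% of all genes. Of the 5, 3 then had log2 fold changes above 0 and 2 below (median 0.0084). The giant GTPase Gvin1 was listed at 0 counts in all 9 libraries.

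Among 13 genes of interferon-gamma signalling, edgeR called 0 in each comparison, and 8 had log2 fold changes above 0 after EnzR EVs and 9 after EnzR EVs + HDL NPs, with medians of 0.14 and 0.19. Ifng itself, the ligand, did not exceed 1.10 CPM in any library. The receptor subunit Ifngr1 stood at 199 to 237 CPM in PBS mice, 196 to 397 CPM in EnzR EV mice and 159 to 206 CPM in EnzR EV + HDL NP mice, and Ifngr2 at 153 to 166, 145 to 206 and 126 to 166 CPM. Ligand and receptors thus overlapped between all groups.

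Downstream of the receptor, Irf1, a transcription factor that interferon-gamma induces, stood at 82.5, 130.0 and 122 CPM in PBS mice, 58.2, 166 and 107 CPM in EnzR EV mice and 196, 181 and 164 CPM in EnzR EV + HDL NP mice. The EnzR EV + HDL NP mice lay above the PBS mice, with a log2 fold change of 0.69 (SE 0.315, edgeR adjusted p = 1.00), and the EnzR EV mice overlapped both other groups. Nlrc5, the transactivator of MHC class I genes, had the highest log2 fold changes of this list, 0.75 (SE 0.335) after EnzR EVs and 1.52 (SE 0.336) after EnzR EVs + HDL NPs, from 21.6, 38.4 and 34.4 CPM in PBS mice to 114.5, 65.9 and 93.0 CPM in the last group. Its edgeR adjusted p was 0.928 and 1.00, but after EnzR EVs + HDL NPs it was called by DESeq2 (adjusted p = 0.0357) and by voom with quality weights, 2 of 19 alternatives, whose adjusted p ran from 0.0357 to 1. Irf8, a myeloid transcription factor, stood at 62.4 to 139.9 CPM in PBS mice and 55.0 to 83.6 CPM in EnzR EV + HDL NP mice, and the feedback inhibitor Socs1 was highest in EnzR EVs replicate 1, at 15.4 CPM against 3.00 to 6.16 CPM elsewhere.

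In the type I interferon list 11 genes were in the table and 8 tested, with 0 called by edgeR in each comparison, and 6 of 8 had log2 fold changes above 0 after EnzR EVs and 5 after EnzR EVs + HDL NPs. The ligand genes Ifna1 and Ifna4 had 0 counts in all 9 libraries, and Ifnb1 had 0 in 8 of them. Of the components of the ISRE-binding complex, Stat2 stood at 38.7 to 48.7 CPM in PBS mice, 36.8 to 64.4 CPM in EnzR EV mice and 63.6 to 83.9 CPM in EnzR EV + HDL NP mice, and Irf9 at 57.6 to 89.0, 43.3 to 129 and 105 to 141 CPM. Usp18, which damps type I interferon signalling, stood at 9.50 to 17.6 CPM in PBS mice, 7.13 to 39.2 CPM in EnzR EV mice and 23.7 to 32.0 CPM in EnzR EV + HDL NP mice. In these 3 genes, and in Irf7, all EnzR EV + HDL NP mice lay above all PBS mice. They were 4 of the 8 tested, against 6.96% of all genes tested.

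Genes that act with GBPs and IRGs were counted in the same way. Of 14 genes of ATG8 conjugation and vacuole targeting, which place GBPs and IRGs on membranes, 3 had log2 fold changes above 0 after EnzR EVs and 6 after EnzR EVs + HDL NPs, with medians of -0.15 and -0.056. Of 9 genes of GBP prenylation and inhibition, 7 were above 0 after EnzR EVs and 1 after EnzR EVs + HDL NPs, with medians of 0.10 and -0.13. Of 10 inflammasome genes downstream of GBPs, 3 were above 0 after EnzR EVs and 9 after EnzR EVs + HDL NPs, with medians of -0.14 and 0.13. Gsdmd, the pore-forming protein that inflammasome caspases cut, stood at 110 to 119 CPM in PBS mice, 122 to 130.2 CPM in EnzR EV mice and 125 to 139 CPM in EnzR EV + HDL NP mice. Il18, an inflammasome cytokine and the lowest of that list by log2 fold change after EnzR EVs, stood at 5.98 to 11.8, 3.84 to 10.1 and 7.96 to 9.74 CPM in the same order of groups. By edgeR 0 genes of these lists were called in any comparison.

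The genes with the highest and lowest log2 fold change after EnzR EVs in the ATG8, prenylation and signalling lists overlapped between PBS and EnzR EV mice. Gabarapl1, an ATG8 protein, stood at 10.9 to 13.4 CPM in PBS mice and 6.74 to 11.0 CPM in EnzR EV mice, and Pim1, a kinase that restrains human GBP1, at 98.2 to 171 and 118 to 302 CPM. Of the signalling lists, Jak2, a kinase of the interferon-gamma receptor, stood at 106 to 158 and 80.1 to 153 CPM, and Tyk2, a kinase of the type I receptor, at 82.7 to 102 and 85.1 to 87.0 CPM.

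The labelled cell type was checked by its markers. Itgam, which encodes CD11b, stood at 1389 to 2006 CPM in all libraries. The summed level of 14 neutrophil markers was 58986 to 120050 CPM in PBS mice, 33747 to 129928 CPM in EnzR EV mice and 87631 to 152056 CPM in EnzR EV + HDL NP mice, and none of the 14 was at 0 in any library. It was lowest in EnzR EVs replicate 1, PBS replicate 1 and EnzR EVs replicate 3, which are the 3 libraries with over 10% Rn45s. The summed level of 12 monocyte markers was 3486 to 4093 CPM in PBS mice, 2213 to 3528 CPM in EnzR EV mice and 2990 to 4029 CPM in EnzR EV + HDL NP mice. Of these 12, 9 had log2 fold changes below 0 after EnzR EVs (median -0.31) and 7 after EnzR EVs + HDL NPs (median -0.13). For the neutrophil markers these counts were 11 and 6 of 14, with medians of -0.13 and 0.11. For 11 NK and T cell markers the summed level was 58.6 to 68.3, 60.2 to 84.5 and 37.1 to 65.9 CPM, with Cd3e at 0 in 5 libraries and Cd8a at 0 in 4. Of 8 tested, 7 were below 0 in each comparison with PBS, with medians of -0.39 and -0.30. For 8 B and plasma cell markers the summed level was 20.99 to 34.3, 9.81 to 25.8 and 8.66 to 26.6 CPM, with Pax5 and Vpreb1 each at 0 in 1 library. All 7 tested were below 0 in each comparison with PBS, with medians of -1.01 and -0.71. For 10 bone marrow macrophage markers the summed level was 656 to 1262 CPM in PBS mice, 551 to 712 CPM in EnzR EV mice and 652 to 852 CPM in EnzR EV + HDL NP mice, and 9 of 10 had log2 fold changes below 0 after EnzR EVs (median -0.71) and 10 of 10 after EnzR EVs + HDL NPs (median -0.42). Of 8 tested erythroid markers, 8 were below 0 after EnzR EVs and 7 after EnzR EVs + HDL NPs, with medians of -0.88 and -0.43, and the list summed to 155 to 196, 112 to 158 and 96.4 to 154 CPM, with Hba-a1, Hba-a2, Hbb-b1 and Hbb-b2 listed at 0 in all 9 libraries. For 10 dendritic cell markers the sums were 132 to 209, 138 to 171 and 159 to 201 CPM, with Clec9a at 0 in 1 library, and 6 and 8 of 10 were below 0. For 10 platelet and megakaryocyte markers they were 129 to 248, 119 to 216 and 127 to 194 CPM, with Gp6 at 0 in 2 libraries, and 7 and 9 of 9 tested markers were below 0. By edgeR 0 genes of these lists were called in any comparison. At an unadjusted edgeR p under 0.05 after EnzR EVs were 5 of 10 macrophage markers, against 3.47% of all genes. So were 3 of 7 B and plasma cell, 3 of 8 erythroid, 2 of 12 monocyte and 2 of 10 dendritic cell markers. The NK and T cell, neutrophil and platelet lists held 1 of 8, 0 of 14 and 0 of 9. After EnzR EVs + HDL NPs each list had 0 or 1 such gene, against 2.13% of all genes. The part of these cell types in the GBP and IRG levels was not tested.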

How the data were processed

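Total RNA of CD11b+ bone marrow cells was sequenced as stranded single-end reads of 75 bases. For 9 libraries (3 groups of 3 mice) the authors deposited unnormalized gene counts; the processing notes and methods name cutadapt 1.13 for trimming, STAR for alignment (mm10) and HTSeq 0.6.1p1 for counting on a UCSC annotation. The strand setting of the counting is not given in the sources used here. Each group came from the sample titles. The labels give HDL NPs at 1 µM, and the study's methods give another concentration. Nothing names a sequencing batch.

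In R 4.3.3, edgeR 4.0.16 was run with TMM scaling, its default filter, a robust quasi-likelihood fit of all 9 libraries and Benjamini-Hochberg adjustment at 0.05. Each SE is the absolute log2 fold change divided by the square root of that test's F statistic. CPM was TMM-scaled, and log2 CPM had a prior count of 2. DESeq2 1.42.0 and limma 3.58.1 were alternatives, besides other scalings, filters, blocks and left-out libraries. Scripts were tested on simulated data. Counts of the closest replicates, PBS 2 and 3, gave a chi-square per gene of 4.70, above sampling noise.

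The members and lists were chosen with earlier results of these data known. Named genes were the members, the other GBP and IRG genes, set signalling genes, the highest and lowest gene of each other list after EnzR EVs and the 10 genes most alike. Atl1 is named because it was counted with the Mx genes. The extremes of the marker lists, and Arhgdia and Atl3, are not printed, and 1 gene of the signalling lists is not reported here. Deviations from the group means in same-numbered mice of the PBS and EnzR EV groups had r of 0.47, 0.49 and 0.13 over genes. Pairs with unlike numbers ran from -0.53 (PBS 1 with EnzR EVs 2) to 0.43 (PBS 3 with EnzR EVs 2). These values thus do not show that equal numbers go together, and the replicate block is printed beside that comparison as an alternative. With EnzR EVs + HDL NPs the correlations of same-numbered mice were not all above 0.1, and no shared litter or day is named. P-values set a difference against the spread between libraries, 1 per mouse, which includes differences in depth and Rn45s share. Promoter windows came from RefSeq (GRCm38.p6) and gene models and transcripts from GENCODE M21. Protein sequences were not used here.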

Additional observations from a re-analysis of the deposited data

How the results depend on the processing

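Against PBS, 191 of 197 values for the 10 genes stayed above 0 after EnzR EVs and 187 of 187 after EnzR EVs + HDL NPs, and 182 of 187 did between the treated groups. Genes called by edgeR, 0 in each comparison, became 8 after EnzR EVs, 7 (2 members) after EnzR EVs + HDL NPs and 1 between treated groups with DESeq2. They became 1990 (2 members), 10 (2 members) and 653 with voom and sample quality weights. For EnzR EVs against PBS they became 1 without a filter, 1 with the replicate block, 8 with the replicate block on 6 libraries, 5 without the 2 libraries of lowest total, 10 without the 3 of over 10% Rn45s, and 0 to 2 when each library was left out in turn (2 without PBS replicate 1). Between treated groups they became 1 in the 6-library fit, 1 without the 2 lowest totals and 1 without the 3 of high Rn45s. The replicate block changed no member's call. Tgtp1 after EnzR EVs, 1.39 in edgeR, was -0.20 with quality weights and from -1.06 (without EnzR EVs replicate 2) to 1.86 when 1 library was left out, and Gm5431, -0.39, was 0.029 without the 3 libraries. The cause of these changes was not tested. Scaling by library size only moved the median of all genes to -0.18 after EnzR EVs and 0.24 between treated groups, and DESeq2 moved the latter to -0.11, and relative to these shifts the medians of the 10 genes stayed higher, at 0.49, 0.78 and 0.62. Depth limits Gbp6 and Tgtp1, which had 0 counts in EnzR EVs replicate 1. Leaving out the libraries of high Rn45s, and the block on 6 libraries, were chosen after seeing the data.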
